A study of Mus musculus with 18 samples.

Results

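Heart iECs were compared with heart fibroblasts by sequencing of mRNA from mouse cells at day 7, with 3 libraries of each. These are 6 of the 18 libraries of the series and were taken by their labels alone. The other libraries were native endothelial cells (ECs) from heart, and fibroblasts, iECs and native ECs from lung, again 3 of each. Every group was kept in EGM2, a medium sold for endothelial cells, and the fibroblasts are labelled as controls. The labels call the second group heart iEC in the cell type field and SEG in the title, and explain neither term. They give no strain, age, genotype, vector or starting cell, so what sets the iECs apart from the control fibroblasts is known here only from the RNA. They do not say if the replicates come from different animals or cultures, and p-values here measure no more than the spread of these libraries, which may be technical. The series was made to ask whether iECs take on the endothelial identity of the organ they come from, and the step from heart fibroblast to heart iEC is the base of that question.

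Endothelial cells line blood and lymph vessels and are held together by VE-cadherin and claudins. They are told apart from other cells by receptors for VEGF, angiopoietins and Notch ligands. SoxF proteins and ETS proteins such as ERG switch on many of these genes, and Notch signalling with Sox17 marks the arterial branch. Cardiac fibroblasts make the collagens and small proteoglycans of the heart's matrix and carry the PDGF receptors. In culture they also make complement and other secreted plasma-type proteins.

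Sequences before the start of 6 genes are shown first, since they come from 4 groups of genes that moved together in the values below. Each is the stretch of 250 bases before the RefSeq start, read in the direction of the gene, on GRCm38.p6. Gja5 (chr3:97032152-97032401, plus strand) and Sema3g (chr14:31217623-31217872, plus strand) are from the arterial list. Hmgcs1 (chr13:119690101-119690350, plus strand) is from the cholesterol synthesis list and Ifit3 (chr19:34583279-34583528, plus strand) from the interferon-stimulated list. Ccnb2 (chr9:70421555-70421804, minus strand) and Cdc20 (chr4:118437344-118437593, minus strand) are from the mitosis list. Capitals mark, on either strand, AGGAAG (the core bound by ETS proteins) or ACAAT (the core bound by SOX proteins) in the arterial pair. They mark TCACNCCAC (the sterol regulatory element) in Hmgcs1, the interferon-stimulated response element (GAAA, any 2 bases, GAAA) in Ifit3, and CCAAT or TTTGAA (the CHR element of cell cycle genes) in the mitosis pair. No base printed here belongs to more than 1 match. The 6 genes and all motifs but the ETS and SOX cores were chosen after the values of their lists were seen. Each of the 6 holds a match, so they do not show how common a motif is in its list.
Gja5: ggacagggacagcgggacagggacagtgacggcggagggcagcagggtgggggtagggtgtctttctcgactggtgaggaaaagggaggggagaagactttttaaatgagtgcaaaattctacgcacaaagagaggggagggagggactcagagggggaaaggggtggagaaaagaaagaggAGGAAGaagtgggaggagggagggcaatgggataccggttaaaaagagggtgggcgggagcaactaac
Sema3g: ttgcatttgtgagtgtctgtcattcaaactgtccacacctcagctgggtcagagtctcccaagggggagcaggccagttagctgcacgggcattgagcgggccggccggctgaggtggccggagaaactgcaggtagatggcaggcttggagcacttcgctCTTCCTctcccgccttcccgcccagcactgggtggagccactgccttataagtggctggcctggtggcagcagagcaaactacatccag
Hmgcs1: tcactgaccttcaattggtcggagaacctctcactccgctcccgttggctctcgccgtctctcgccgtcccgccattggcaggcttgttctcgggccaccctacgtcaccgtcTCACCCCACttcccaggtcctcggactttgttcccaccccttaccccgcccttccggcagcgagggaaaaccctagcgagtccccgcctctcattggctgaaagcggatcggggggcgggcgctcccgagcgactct
Ifit3: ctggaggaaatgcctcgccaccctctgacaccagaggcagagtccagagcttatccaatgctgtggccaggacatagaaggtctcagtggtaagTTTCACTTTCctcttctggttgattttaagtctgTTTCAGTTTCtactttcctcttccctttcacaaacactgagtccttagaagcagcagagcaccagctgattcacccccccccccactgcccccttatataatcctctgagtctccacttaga
Ccnb2: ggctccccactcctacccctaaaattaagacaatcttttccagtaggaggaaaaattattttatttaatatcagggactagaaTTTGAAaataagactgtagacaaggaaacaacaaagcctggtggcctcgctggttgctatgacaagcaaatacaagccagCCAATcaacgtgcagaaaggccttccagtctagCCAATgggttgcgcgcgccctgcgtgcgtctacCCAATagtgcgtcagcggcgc
Cdc20: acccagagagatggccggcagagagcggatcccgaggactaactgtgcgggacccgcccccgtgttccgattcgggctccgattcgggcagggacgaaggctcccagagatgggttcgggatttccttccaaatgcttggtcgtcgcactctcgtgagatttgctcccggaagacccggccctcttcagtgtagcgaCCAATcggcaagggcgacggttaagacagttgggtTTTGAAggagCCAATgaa
A match says that the letters are present and nothing on whether a protein binds them. Of the 11182 tested genes with a promoter in the table, 32.8% held the ETS core and 21.5% the SOX core. The arterial list stood near both shares, with the ETS core in 5 of 18 members (27.8%) and the SOX core in 4 (22.2%). Of the 30 endothelial identity genes 17 had a promoter in the table, and the shares were 10 of 17 (58.8%) and 6 of 17 (35.3%). The 10 with the ETS core included Emcn and Tie1, which rose in iECs, Rasip1 and Cd34, which fell, and Eng and Robo4. The sterol element stood before 1 of 15 cholesterol genes (6.67%), which was Hmgcs1, and before 1.22% of all genes. The interferon element stood before 13 of 23 interferon-stimulated genes (56.5%), 3 of 14 MHC class I genes (21.4%) and 3.40% of all genes. CCAAT stood before 19 of 21 mitosis genes (90.5%) and 40.2% of all, and TTTGAA before 8 of 21 (38.1%) and 13.4% of all.

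Totals of the 6 libraries ranged from 18578718 to 23714085 estimated counts, with 15928 to 16778 genes detected in each. Pearson's r of log2(CPM + 1), with CPM from library totals alone, was taken over genes with a mean above 1 CPM. It was 0.994 to 0.995 within fibroblasts, 0.994 to 0.995 within iECs and 0.896 to 0.903 between the groups. For all levels below, CPM is the count per 1000000 counts of a library after TMM normalisation. It is not divided by gene length, so levels are compared within a gene and not between genes. The libraries labelled fibroblast carried Pdgfra (994 ± 16.7 CPM, mean ± SD, n = 3), Tcf21 (321) and Dcn (2178), and also endothelial transcripts such as Cdh5 (75.5), Pecam1 (47.6) and Eng (473). The libraries labelled native heart EC had Cdh5 at 465 and Pecam1 at 309.7 CPM, but Col1a1 at 8286 CPM beside 8517 in fibroblasts and Dcn at 2184 beside 2178. In bulk RNA, fewer cells of a type and less RNA per cell cannot be told apart, here or in any result below.

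**Figure D1:**
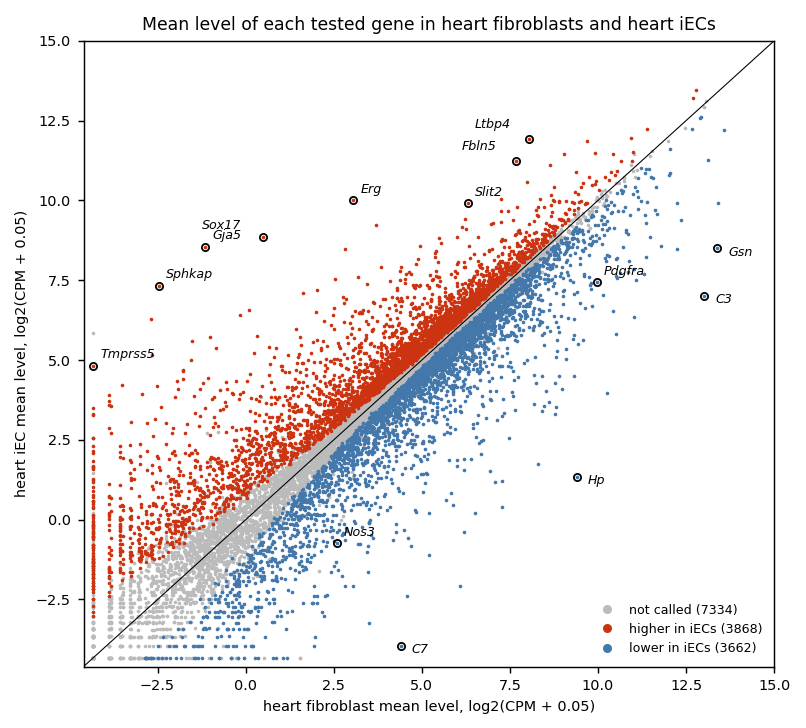
Mean level of each of the 14864 tested genes in heart fibroblasts (x axis) and heart iECs (y axis), as log2(CPM + 0.05), with the diagonal as a line. Red points are the 3868 genes called higher in iECs and blue points the 3662 called lower. Gja5, Sox17 and Erg lie far above the diagonal, and C7, Hp and C3 far below it.

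The change was broad. Of the 14864 genes tested, 3868 (26.0%) were called higher in iECs and 3662 (24.6%) lower at a Benjamini-Hochberg adjusted p under 0.05 in edgeR's quasi-likelihood test, 50.7% in all. The groups did not overlap at all for 65.1% of genes. The median log2 change over all tested genes was 0.02 and the median of its absolute value 0.41, and most called changes were under 2-fold. More than 2-fold changes among the called genes numbered 1531 higher and 1460 lower, more than 8-fold 430 and 314, and more than 64-fold 97 and 29. Scaling by library totals alone moved the median log2 change to 0.21 and the split of calls to 5772 higher (38.8% of genes) and 2551 lower (17.2%), that is, 69.4% of calls higher in place of 51.4%. Changes below are relative to the TMM scale, on which the median gene hardly moved. Counts of called members in each gene list below are to be read beside the shares of 26.0% higher and 24.6% lower.

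Sox17 and Erg, the endothelial transcription factors named above, were low in each fibroblast library and high in each iEC library. Sox17 (ENSMUSG00000025902; chromosome 1, 4490931 to 4497354, minus strand, GRCm38) stood at 1.72, 1.05 and 1.33 CPM in the fibroblast libraries and at 487, 433 and 478 CPM in the iEC libraries, a log2 change of 8.403 ± 0.19 (SE). Erg (ENSMUSG00000040732; minus strand of chromosome 16, 95359169 to 95586593) was measured at 7.31, 8.48 and 8.95 CPM and at 1038, 972 and 1063 CPM, a change of 6.96 ± 0.21. Every iEC library was far above every fibroblast library, and above the native heart ECs at 6.86, 7.30 and 6.27 CPM for Sox17 and 56.5, 45.0 and 52.9 CPM for Erg. The table has 1 value per gene, so a transcript from an added copy and one from the gene's own locus would be counted together.

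**Figure D2:**
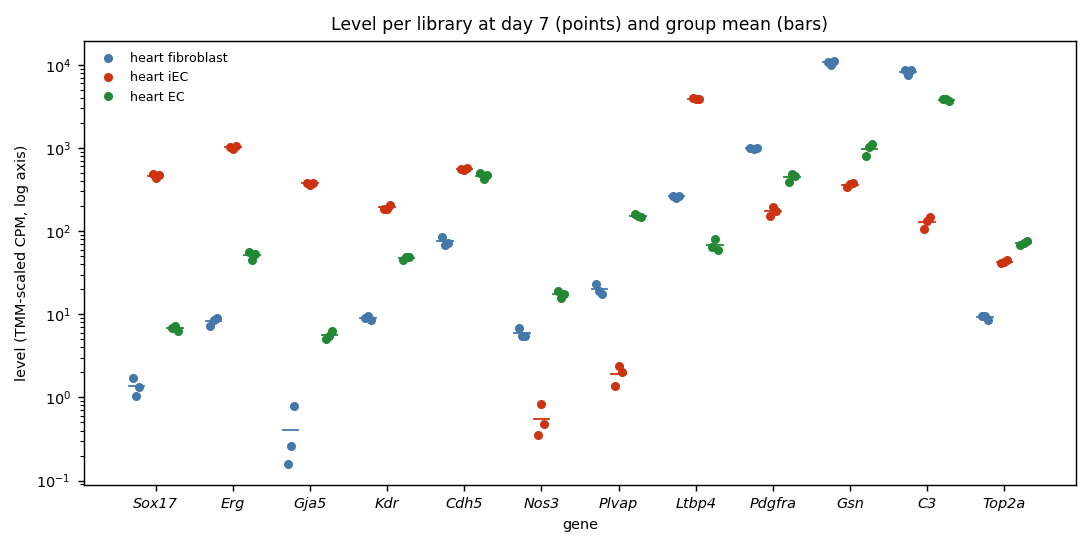
Level of 12 genes in each heart library (points; TMM-scaled CPM on a log axis) with group means (bars), for fibroblasts, iECs and native ECs in that order within each gene. Sox17, Erg, Gja5 and Ltbp4 are higher in all 3 iEC libraries than in any other heart library, while Nos3, Plvap and C3 are lowest there.

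The largest increases did not all fall in endothelial genes. Beside Gja5 and Sox17, the 12 genes with the largest log2 increase at 10 CPM or more included Sphkap, an anchor of protein kinase A, at 0.130 CPM in fibroblasts and 161 ± 21.4 in iECs (log2 change 10.23 ± 0.23). Magix, a PDZ domain gene, went from 0.105 to 78.2 ± 1.45 CPM (9.40 ± 0.25). Adra2a, an adrenergic receptor, went from 0.107 to 35.5 ± 5.65 CPM (8.26 ± 0.33) and Sprr2b, a cornified envelope gene of skin, from 0.0807 to 15.4 ± 1.05 CPM (7.60 ± 0.62). Sprr2 genes are near copies of each other, so the value of Sprr2b is uncertain. Sphkap, Magix, Adra2a and Sprr2b stood at 0.0966, 0.189, 0.412 and 0.247 CPM in native heart ECs, so they were high in iECs and low in both other heart groups. They were high in lung iECs too, at 171, 24.4, 49.5 and 19.9 CPM, beside 0.117, 0, 1.15 and 0.0532 in lung fibroblasts. Tmem28, Tecrl and Aqp4 had 1 count each over the 3 fibroblast libraries, and Clvs1 had 2. Their iEC levels were 14.9 ± 1.55, 13.2 ± 0.296, 11.96 ± 2.42 and 18.4 ± 0.674 CPM in that order. In lung iECs the levels were 15.4, 13.0, 0.0591 and 18.9 CPM, so Aqp4 was not high there.

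Genes without any count in fibroblasts and with at least 5 CPM in each iEC library numbered 5, and no gene showed the reverse. Predicted, clone, pseudogene and mitochondrial genes, and those without a symbol, were left out of this count and of the rankings by size. Tmprss5, a membrane-bound serine protease, stood at 29.1, 22.9 and 33.0 CPM, at least 516-fold higher than a floor of 3 counts over the fibroblast libraries. Lpo, lactoperoxidase, stood at 10.7, 10.3 and 12.4 CPM (at least 204-fold) and Havcr1, a phosphatidylserine receptor known from injured kidney, at 10.4, 7.84 and 11.4 CPM (at least 180.2-fold). Grin2a and Rims1, neuronal genes for a glutamate receptor subunit and a synaptic scaffold, stood at 7.54, 10.2 and 11.01 CPM (at least 175-fold) and 5.41, 5.59 and 6.48 CPM (at least 106-fold). Floors cover counting error only. In native heart ECs the highest of the 5 was Grin2a, at a mean of 0.415 CPM. In lung iECs Tmprss5, Lpo, Havcr1, Grin2a and Rims1 had means of 58.9, 13.9, 27.3, 2.38 and 9.18 CPM.

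The largest decreases were in genes of varied kinds, secreted proteins among them. C7, the complement component, had 1161 counts over the fibroblast libraries (21.2 ± 0.188 CPM) and 1 count over the iEC libraries. Eef1a2, a translation factor of muscle and nerve, went from 68.3 ± 7.90 to 0.188 CPM (−8.47 ± 0.45), and Hp, haptoglobin, from 671 ± 51.1 to 2.47 ± 1.88 CPM (−8.08 ± 1.04). Agt, angiotensinogen, went from 24.0 to 0.142 CPM (−7.33 ± 0.55). Spon1, a matrix protein, went from 1213 ± 80.7 to 15.5 ± 3.03 CPM (−6.29 ± 0.28), and Lgi2, a secreted protein, from 315 to 3.30 CPM (−6.57 ± 0.44). Cngb3, Serpina3m and Gsta3 (a glutathione transferase) fell too, with log2 changes of −7.48, −6.93 and −6.10.

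By the difference in CPM, which favours abundant transcripts, matrix and secreted genes stood first in both directions. The largest gains were in Fn1, fibronectin, from 7060.4 ± 196 to 11187 ± 661 CPM, and Ltbp4, a latent TGF-beta binding protein of elastic fibres, from 261 ± 8.83 to 3894 ± 56.02 CPM. Thbs1 (thrombospondin 1) went from 824 to 3735 CPM and Txndc5 (a protein disulfide isomerase) from 400.2 to 2223. The largest losses were in Gsn, which severs actin and has a plasma form, from 10704 ± 605 to 362 ± 16.5 CPM, and in the protease inhibitor Serpina3n, from 10822 ± 68.9 to 961 ± 146 CPM. Gpx3 (plasma glutathione peroxidase) went from 5275 to 668 CPM, Gas6 (a ligand of the TAM receptors) from 4860.4 to 355, Selenop (a selenium carrier) from 4816 to 975 and Fth1 (ferritin heavy chain) from 3283 to 758.

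**Figure D3:**
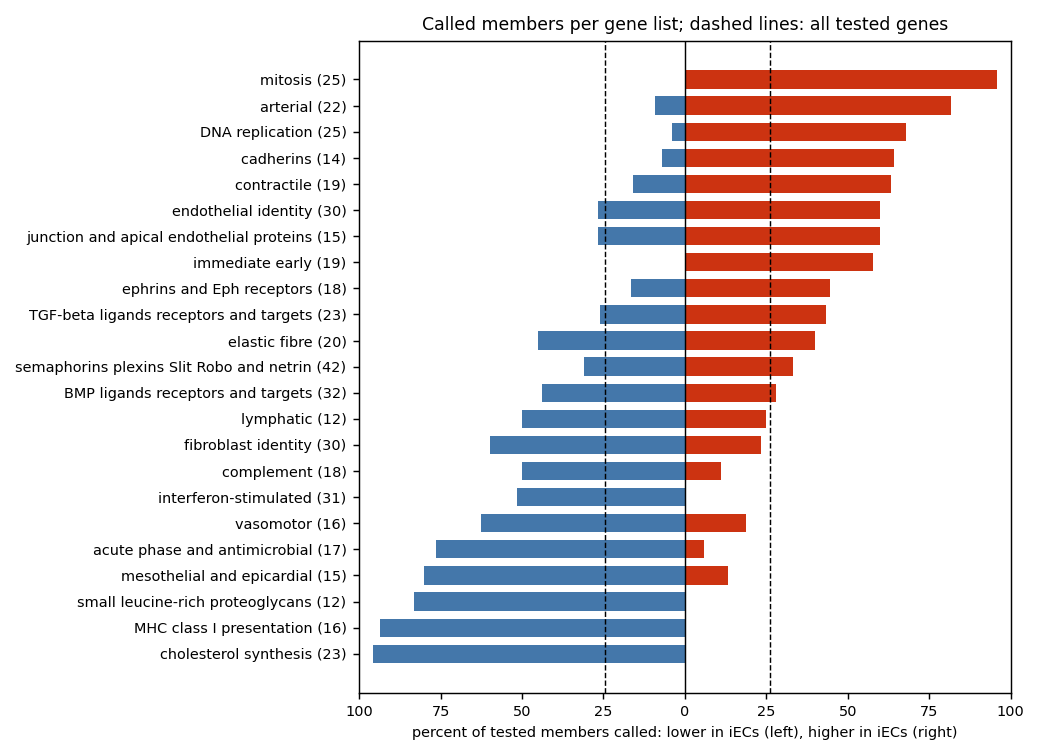
Percent of the tested members of each gene list (number in brackets) called lower (blue, left) or higher (red, right) in heart iECs than in heart fibroblasts. Dashed lines give the share over all tested genes, 26.0% higher and 24.6% lower. Mitosis and arterial genes reach furthest right, cholesterol and MHC class I genes furthest left.

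Endothelial identity genes moved in both directions. Of 30 members, 18 were called higher (26.0% of all genes) and 8 lower (24.6% of all), with a median log2 change of 1.004 beside 0.02 over all genes. Their summed share of counts went from 0.0988% ± 0.00178 in fibroblasts to 0.344% ± 0.00966 in iECs (SD, n = 3), without overlap (exact 2-sided permutation p = 0.1, the smallest that 3 against 3 allow). Native heart ECs held 0.413% ± 0.0119. The comparisons with fibroblasts and with ECs share the iEC libraries, so their values are given side by side and not as independent evidence.

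Receptors and adhesion molecules of the endothelial surface led the increases. Kdr, the main VEGF receptor, stood at 8.93, 9.53 and 8.53 CPM in fibroblasts, 187, 186 and 209 in iECs and 44.6, 48.3 and 49.2 in native ECs (log2 change 4.43 ± 0.14 from fibroblasts). The iEC libraries lay above all libraries of both other groups. S1pr1, the receptor for sphingosine 1-phosphate, went from 14.3 to 239.9 ± 10.2 CPM (4.06 ± 0.14), the adhesion molecule Mcam from 21.0 to 243 ± 13.9 (3.53 ± 0.15) and Icam2 from 3.54 to 36.9 ± 0.495 (3.38 ± 0.18). Cd93, a lectin-like receptor, rose by 3.02 and Tie1, a receptor of the angiopoietin system, by 3.02. Cdh5, which encodes VE-cadherin, stood at 85.9, 67.9 and 72.6 CPM in fibroblasts and 556, 540.4 and 569 in iECs (2.88 ± 0.12), beside 497, 426 and 474 in native ECs, and the difference from native ECs did not pass the test (edgeR adjusted p = 0.0667).

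Other endothelial genes went the opposite way, below the level already present in the fibroblast libraries. Nos3, endothelial nitric oxide synthase, stood at 6.84, 5.42 and 5.51 CPM in fibroblasts and 0.355, 0.834 and 0.475 in iECs (−3.39 ± 0.35), against 19.1, 15.9 and 17.5 in native ECs. Plvap, the diaphragm protein of fenestrae and caveolae, stood at 23.4, 19.1 and 17.7 and 1.38, 2.38 and 2.03 CPM (−3.37 ± 0.24), against 159, 152 and 148 in native ECs. For both genes every iEC library was below every library of both other groups. Rasip1, needed for vessel lumens, Cd34, the matrix protein Mmrn2, the tight junction gene Cldn5 and the tetraspanin Tspan7 fell as well, with log2 changes of −3.08, −2.20, −1.95, −1.74 and −1.44. Vwf, von Willebrand factor, was not called, at 19.9 ± 2.89 and 22.2 ± 3.69 CPM (change 0.16 ± 0.13), with native ECs at 276 ± 22.9.

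**Figure D4:**
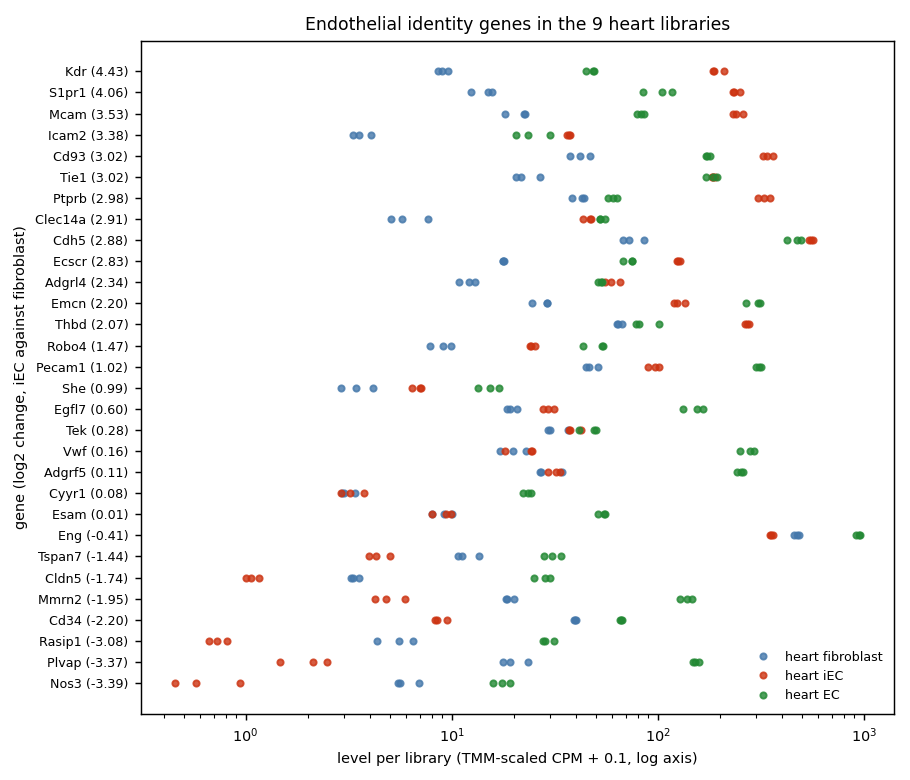
Level of the 30 endothelial identity genes in each of the 9 heart libraries (TMM-scaled CPM + 0.1, log axis), ordered by the log2 change from fibroblast to iEC given in brackets. For 8 genes, all near the top, iECs were called above native ECs (green), and for 17 below them, with Nos3, Plvap and Rasip1 lower than in fibroblasts (blue) too.

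Set against native heart ECs, 8 of the 30 were called higher in iECs and 17 lower, where 24.5% and 24.4% of all genes were, 48.9% in all. The 8 included Kdr (2.03 ± 0.12), Ptprb, a phosphatase that acts on VE-cadherin and Tie2 (2.44 ± 0.11), and the anticoagulant receptor Thbd (1.64 ± 0.12). The 17 included Pecam1 (−1.69 ± 0.090), Emcn (−1.23 ± 0.10), Egfl7 (−2.36 ± 0.089), Esam (−2.58 ± 0.13) and Plvap (−6.30 ± 0.24).

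Among 29 tested endothelial transcription factors, 11 were called higher and 9 lower, and the median log2 change was −0.05. Beyond Sox17 and Erg, the increases were in Lmo2 (9.20 to 44.1 ± 2.47 CPM, 2.26 ± 0.16), a partner of the Tal1 complex, Hhex (2.90 ± 0.27), Meox1 (2.38 ± 0.27) and Foxc2 (1.81 ± 0.12). Those that fell included Sox18 (4.80, 3.74 and 4.84 CPM in fibroblasts, 0.888, 0.626 and 0.691 in iECs, 17.7, 17.5 and 20.3 in native ECs), Foxf1 (−1.28 ± 0.18), Gata2 (−0.72 ± 0.13) and the ETS gene Fli1 (−0.62 ± 0.12). Sox7, the other SoxF gene, was not called (3.64 and 4.61 CPM), so of the SoxF genes Sox17 rose, Sox18 fell and Sox7 did not pass the test. Tal1 was not called either (1.81 and 2.01 CPM), and Etv2 did not pass the filter. Sox genes outside this list that rose included Sox6 (2.67 to 62.6 ± 9.10 CPM), Sox13 (8.11 to 83.1 ± 5.23) and Sox21 (0.0174 to 7.30 ± 1.53), while Sox9, a cartilage and valve factor, fell from 146 ± 10.7 to 27.9 ± 2.70 CPM (−2.38 ± 0.15). Of 20 tested ETS genes 5 were higher and 7 lower (8 and 5 when scaled by totals alone), with Etv4 (2.72 ± 0.15) and Etv5 (1.43 ± 0.085), which follow FGF and MAP kinase signals, next to Erg among the increases.

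Arterial genes rose in most members. Of 22 tested members (Gkn3 did not pass the filter), 18 were called higher and 2 lower, with a median log2 change of 2.94. The same number, 18, were called above native heart ECs. The list held 0.359, 0.333 and 0.346 % of the counts of the fibroblast libraries, 1.46, 1.47 and 1.45 % of the iEC libraries and 0.229, 0.243 and 0.239 % of the native EC libraries. The matrix genes Ltbp4, Fbln5 and Mgp made up most of these counts in fibroblasts and iECs. Gja5, connexin 40 of arterial endothelium, stood at 0.157, 0.263 and 0.787 CPM in fibroblasts and 379.9, 359.6 and 384 in iECs (9.90 ± 0.30), against 5.06, 5.44 and 6.33 in native ECs. Sema3g, a secreted semaphorin of arterial endothelium, stood at 3.34, 2.69 and 3.15 and 139, 135 and 138 CPM (5.49 ± 0.20). Both genes, whose start regions are printed above, separated all 3 iEC libraries from the other 6 heart libraries.

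The Notch ligands and receptors of the list rose in every case. The ligand Dll4 went from 5.27 ± 1.38 to 68.5 ± 2.02 CPM (3.70 ± 0.14), Jag2 from 1.05 to 14.0 ± 1.34 (3.72 ± 0.34) and Jag1 from 97.1 to 466 ± 19.9 (2.26 ± 0.13). The receptors Notch4 and Notch1 rose by 2.43 ± 0.091 and 1.59 ± 0.11. Their target Hey1, a transcriptional repressor, stood at 1.57, 0.526 and 0.424 CPM in fibroblasts and 85.0, 83.3 and 85.2 in iECs (6.62 ± 0.32), and Hey2 at 1.16 and 10.1 ± 1.12 CPM (3.11 ± 0.41). Heyl rose from 4.61 to 74.7 ± 6.28 CPM (4.02 ± 0.32), while Hes1, another target, was not called (29.9 ± 2.25 and 31.6 ± 1.83 CPM). Over the whole Notch list, 7 of 19 members were higher and 5 lower. The decreases included Mfng, which modifies Notch (−3.23 ± 0.57), the ligand Dll1 (−2.09 ± 0.30) and Rbpj, the DNA-binding partner of Notch (111 to 87.8 CPM, −0.33 ± 0.10), which stood at 278 CPM in native ECs.

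Further arterial genes were Efnb2 (ephrin B2; 19.8 to 145 ± 7.30 CPM, 2.87 ± 0.10), the kinase Bmx (3.21 ± 0.18), Gja4 (connexin 37; 3.002 ± 0.17), Igfbp3 (252 ± 18.1 to 1526 ± 90.4 CPM, 2.60 ± 0.12) and Nrp1 (1.18 ± 0.19). The members called lower were Cxcr4, the receptor of Cxcl12 (−0.65 ± 0.19), and Vegfc (−0.70 ± 0.13). Mgp, a calcification inhibitor, was not called (2091 ± 133 and 2773 ± 182 CPM), nor was Tmem100 (0.724 and 0.588 CPM), which makes up the list with Sox17, Ltbp4, Fbln5 and Unc5b (0.88 ± 0.10).

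Venous, lymphatic and capillary genes moved in both directions. Of 13 venous genes 4 were higher (30.8%) and 3 lower (23.1%), near the shares over all genes. Emcn rose from 27.5 ± 2.56 to 126 ± 7.67 CPM (2.20 ± 0.11) and Vcam1 from 972 ± 49.9 to 2846 ± 94.9 (1.55 ± 0.28), while Nrp2, a co-receptor of venous and lymphatic endothelium, fell from 191 ± 5.798 to 14.8 ± 1.65 CPM (−3.70 ± 0.14). Nr2f2, the venous factor COUP-TFII, was not called (56.2 ± 4.76 and 52.1 ± 2.21 CPM). Of 12 lymphatic genes 3 were higher and 6 lower, among them Mmrn1 (−2.66 ± 0.19) and Reln (reelin; 3.93 to 1.66 CPM), and Prox1 and Lyve1 were not called. Of 17 capillary and fatty acid uptake genes 6 were higher and 7 lower. Lpl, lipoprotein lipase, went from 1369.6 ± 72.7 to 93.0 ± 13.2 CPM (−3.88 ± 0.26), Gpihbp1, its anchor on capillaries, from 3.78 to 0.142, Apln from 31.2 to 3.52 and Rgcc from 11.2 to 1.20, whereas the water channel Aqp1 rose from 9.72 to 89.0 ± 20.6 CPM (3.19 ± 0.28).

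Endocardial genes, of the inner lining of the heart, were 4 higher and 4 lower of 10 tested. Nrg1, the neuregulin that endocardium sends to heart muscle, rose from 7.29 ± 1.52 to 52.5 ± 4.51 CPM (2.84 ± 0.17) and stayed below native ECs at 157 ± 17.7, and Nfatc1, a factor of valve endocardium, fell from 24.8 ± 0.623 to 14.6 ± 1.62 CPM (−0.76 ± 0.15). Tip cell genes, of the leading cells of vessel sprouts, were 8 higher and 6 lower of 15. Esm1 went from 1.74 to 14.4 ± 2.36 CPM (3.07 ± 0.25) and Lxn (latexin) from 23.7 to 127 ± 3.001 (2.42 ± 0.15), while Trp53i11 fell from 28.7 ± 1.91 to 7.85 ± 0.565 (−1.87 ± 0.12).

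VEGF and angiopoietin genes moved in both directions. Of 10 VEGF genes 5 were higher and 4 lower. The receptors Kdr (4.43) and Nrp1 (1.18) rose, Flt4 rose slightly (0.27 ± 0.11), Flt1 was not called (41.5 ± 5.54 and 48.5 ± 0.784 CPM), and Nrp2 fell (−3.70). Among the ligands, Pgf rose from 14.4 to 43.6 ± 5.81 CPM (1.60 ± 0.16) and Vegfa slightly (0.39 ± 0.11), whereas Vegfd fell from 459 ± 11.8 to 39.2 ± 2.78 CPM (−3.55 ± 0.41) and Vegfb by 1.72. Of 10 angiopoietin and Tie genes 3 were higher and 6 lower. The receptors Tie1 and Tek (Tie2) stood among the 3, at 3.02 ± 0.10 and 0.28 ± 0.11, and the ligands Angpt1 (−2.73 ± 0.18), Angpt2 (−1.77 ± 0.14) and Angpt4 (−0.72 ± 0.17) among the 6, with Svep1, a matrix ligand of Tie1, falling from 641 ± 15.3 to 55.0 ± 6.58 CPM.

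Of 15 junction and apical genes 9 were higher and 4 lower, with Ocln (occludin; 0.160 to 8.09 ± 1.25 CPM) among the increases and Jam2 falling from 155 ± 4.34 to 65.6 ± 3.96 CPM (−1.24 ± 0.10). Of 14 tested cadherins 9 were higher, several at under 5 CPM, and 1 lower. Cdh6, a cadherin of kidney and platelets, went from 0.296 to 48.0 ± 2.77 CPM (7.33 ± 0.25), beside 7.59 in native ECs, and Cdh13 from 16.1 to 84.9 ± 5.89 (2.39 ± 0.12), while Cdh19, a cadherin of glia, fell from 20.2 to 1.81 ± 0.203 CPM (−3.48 ± 0.41). Of 11 tested claudins 5 were lower and 1 higher (2 higher without heart fibroblast replicate 1), with a median of −1.26, and Cldn12 alone was above 10 CPM. With a filter of 5 CPM the claudins were 1 higher and 1 lower, and the cadherins 5 higher and 1 lower. Of 9 tested connexins 6 were higher and 1 lower, and Gja1, connexin 43, was among those that rose, from 15.9 to 25.2 ± 1.38 CPM.

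Genes of vascular tone fell more often than they rose. Of 16 tested members 3 were higher and 10 lower, with a median of −1.03. The soluble guanylate cyclase subunit Gucy1a1, which senses nitric oxide, went from 123 ± 13.9 to 13.7 ± 1.58 CPM (−3.16 ± 0.22), and the natriuretic peptide clearance receptor Npr3 from 156 ± 10.2 to 13.8 ± 2.56 (−3.51 ± 0.20). The prostaglandin enzyme Ptgs1 (−2.32), the angiotensin-converting enzyme Ace (−1.22) and the vasodilator peptide Adm (−1.02) fell. The increases were Ptgs2, the inducible counterpart of Ptgs1, from 4.75, 6.32 and 6.29 to 185, 186 and 188 CPM (5.01 ± 0.40), Edn1, endothelin 1, from 45.4, 41.9 and 46.2 to 455, 471 and 442 CPM (3.36 ± 0.078), and its processing enzyme Ece1 (1.08 ± 0.090). Caveolar genes Cav1 and Cav2 rose from 74.4 to 689 ± 32.3 CPM (3.21 ± 0.17) and from 30.4 to 158 ± 9.79 (2.38 ± 0.11), 2 of 4 members of 10 that were higher against 3 lower.

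Among 14 tested haemostasis genes 5 were higher (35.7%) and 6 lower (42.9%). Thbd (2.07 ± 0.12) and the urokinase receptor Plaur (1.87 ± 0.24) rose, while the protease Plau (−2.24 ± 0.20), its inhibitor Serpine2 (−1.49 ± 0.11) and the protein C receptor Procr (−0.47 ± 0.18) fell. Of 12 tested leukocyte adhesion genes 6 were higher and 3 lower, with a median log2 change of 1.35 and a range from −2.57 to 6.49. Their share of counts went from 0.118% ± 0.00575 in fibroblasts to 0.342% ± 0.0111 in iECs, against 0.351% ± 0.0282 in native ECs. Icam1 fell from 218 ± 10.8 to 86.1 ± 2.74 CPM (−1.34 ± 0.33), Sele and Selp, the endothelial selectins, were not called (2.27 and 8.22 CPM in iECs), and native ECs had 68.4 and 551 CPM.

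Single guidance genes changed by as much as 5.49 on the log2 scale (Sema3g, given with the arterial genes). Of 18 tested ephrin and Eph genes 8 were higher and 3 lower, and 5 of the 8 were ephrins. Efna3 went from 1.03 to 23.6 ± 2.38 CPM (4.50 ± 0.30), Efnb1 from 23.02 to 169 ± 6.997 (2.88 ± 0.16), Efna4 from 2.76 to 19.96 ± 1.71 (2.85 ± 0.14) and Efna1 from 4.81 to 33.0 ± 2.03 (2.77 ± 0.12), and the receptor Epha4 rose by 2.09. Of 42 semaphorin, plexin, Slit, Robo and netrin genes 14 were higher and 13 lower, near the shares over all genes. Slit2, a secreted repellent, stood at 73.8, 79.5 and 83.0 CPM in fibroblasts and 965, 947 and 975 in iECs (3.61 ± 0.14), and its receptor Robo2 at 1.21 and 54.2 ± 9.65 CPM (5.46 ± 0.21). Ntn4, a netrin of basement membranes, rose by 2.09 ± 0.16. The semaphorin receptor Plxnc1 fell from 15.5 ± 0.745 to 1.68 ± 0.278 CPM (−3.20 ± 0.21), and Sema3c (−3.04), Unc5c (−2.43) and Sema3b (−2.37) fell as well.

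Genes of the TGF-beta family moved in both directions. Of 23 TGF-beta genes 10 were higher and 6 lower. Ltbp4 stood at 265, 251 and 267 CPM in fibroblasts and 3959, 3867 and 3857 in iECs (3.90 ± 0.14), above native ECs at 63.8, 80.2 and 59.9, and Ltbp1 and Tgfb2 rose by 1.68 ± 0.19 and 1.48 ± 0.11. Fst, the activin inhibitor follistatin, rose from 27.0 to 162 ± 7.15 CPM (2.58 ± 0.19), and Inhbb, an activin chain, fell from 368 ± 19.3 to 16.2 ± 1.51 CPM (−4.51 ± 0.16). The receptors Tgfbr1 and Tgfbr2 were not called (66.9 and 71.8, and 495 and 532 CPM), and the co-receptor Tgfbr3 fell by 1.95. Of 32 tested BMP genes 9 were higher, with Bmp4 (21.2 to 124 ± 8.74 CPM, 2.55 ± 0.10), Bmp6 (1.38 ± 0.13) and the inhibitory Smad6 (1.05 ± 0.12), and 14 lower, with Bmp2 (−1.23 ± 0.23), Smad9 (−0.99 ± 0.24) and Nbl1, a BMP antagonist (−0.69 ± 0.079).

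Among PDGF genes ligands were the members that rose, and both receptors fell. Pdgfb, by which endothelium recruits pericytes, went from 5.796, 5.05 and 5.81 to 82.5, 85.0 and 86.0 CPM (3.93 ± 0.12) and Pdgfd from 41.7 to 300.0 ± 13.5 (2.85 ± 0.11). The receptors Pdgfra (1005, 975 and 1002 CPM in fibroblasts, 152, 194 and 176 in iECs, −2.52 ± 0.15) and Pdgfrb (930.0 ± 15.4 and 428 ± 20.7 CPM, −1.12 ± 0.14) fell, Pdgfra in each iEC library to below any fibroblast or native EC library. The ligand Pdgfa rose by 0.74 and the ligand Pdgfc fell by 0.72, which makes 3 of 7 PDGF genes higher and 3 lower. Of 37 tested Wnt genes 14 were higher and 11 lower. Dkk2, a Wnt antagonist, went from 0.443 to 52.5 ± 2.98 CPM (6.83 ± 0.38), the ligand Wnt5a from 23.3 to 206 ± 7.84 (3.14 ± 0.15), the receptor Fzd4 from 89.8 to 319 ± 9.77 (1.83 ± 0.11) and the feedback target Axin2 from 1.73 to 6.004 ± 1.09 (1.79 ± 0.36). The decreases were led by Dkk3 (767 ± 18.2 to 49.4 ± 1.24 CPM, −3.96 ± 0.19) and the antagonist Sfrp1 (903 ± 26.2 to 103 ± 12.6 CPM, −3.13 ± 0.14). Immediate early genes, which answer growth factor signals within minutes, rose in 11 of 19 members and fell in 0 (0 also at an unadjusted p under 0.05 in edgeR and 0 by DESeq2), with Jun (27.3 to 158 ± 8.01 CPM, 2.53 ± 0.090), Egr2 (2.26 ± 0.20) and Egr3 (3.94 ± 0.33) at the top.

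Other growth factor systems moved towards lower levels in part. Of 10 IGF genes 2 were higher and 6 lower, and the binding proteins went both ways. Igfbp3 rose (given with the arterial genes), whereas Igfbp6, Igfbp4 and Igfbp7 went from 68.8 to 10.2, from 401 to 109 and from 3042 to 1679 CPM, and the ligand Igf1 fell by 1.10. Of 16 tested FGF genes 6 were higher and 5 lower, most of them at under 5 CPM. The FGF genes called lower were 3 without heart fibroblast replicate 3 or heart iEC replicate 3, and a filter of 5 CPM gave 3 higher and 3 lower. The receptor Fgfr2 rose from 9.63 ± 0.888 to 42.5 ± 2.32 CPM (2.14 ± 0.11), and the stromal ligands Fgf7 and Fgf2 fell from 35.1 to 2.67 and from 99.7 to 53.9 CPM. The median of this list, 0.50, went to −0.029 without heart iEC replicate 1. In the sphingosine 1-phosphate list the receptor S1pr1 rose and S1pr2 (−1.37) and S1pr3 (−2.59) fell, as did Plpp3, which breaks down lysophospholipids, from 355 ± 9.32 to 44.5 ± 1.82 CPM (−2.99 ± 0.28). Of 14 tested retinoic acid genes 5 were higher (3 without heart fibroblast replicate 2) and 7 lower, and the 3 retinaldehyde dehydrogenases differed. Aldh1a3 rose from 0.630 to 19.96 ± 2.26 CPM (4.99 ± 0.30), and Aldh1a1 (1784 ± 33.7 to 532 ± 22.4 CPM, −1.74 ± 0.26) and Aldh1a2 (−1.73 ± 0.17) fell.

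Of 14 tested Kruppel-like factors 3 were higher and 8 lower, with Klf5 rising from 1.45 to 12.6 ± 0.837 CPM (3.11 ± 0.17) and Klf15 falling from 74.6 to 21.1 (−1.82 ± 0.10), while Klf2, which answers flow in endothelium, rose by 0.57 and Klf4 fell by 0.71. Among forkhead genes Foxm1, which drives mitotic genes, rose from 4.205 to 15.3 ± 1.11 CPM (1.85 ± 0.15), and Foxo3 and Foxp2 fell from 222 to 84.8 and from 48.8 to 17.9. Of 10 factors known from the epithelial to mesenchymal transition 4 were higher and 5 lower, the mesenchymal factors Prrx1 (−1.30 ± 0.086) and Snai2 (−1.67 ± 0.10) among the latter. Of 23 tested Hox genes 3 were higher and 3 lower, but 7 and 2 when scaled by totals alone, 3 and 0 with the heart fibroblasts and iECs fitted alone, 5 and 1 without heart fibroblast replicate 2 or heart iEC replicate 2, 5 and 3 without heart fibroblast replicate 3, and 3 and 1 without heart iEC replicate 1. The Hox genes were low, with none above 6.06 CPM in either group (Hoxb3). Of 12 imprinted growth genes 5 were higher, with Peg3 at 33.2, 24.6 and 28.4 CPM in fibroblasts and 160.4, 155 and 177 in iECs (2.51 ± 0.25) and Plagl1 at 6.84 and 36.7 ± 2.41 (2.42 ± 0.22), and 3 lower, with Peg10 at 78.1 and 17.2 ± 2.12 (−2.18 ± 0.22).

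Fibroblast identity genes fell in most members. Of 30 members 18 were called lower and 7 higher, with a median of −0.80, and their share of counts went from 5.01% ± 0.0528 to 3.89% ± 0.0410 (exact 2-sided permutation p = 0.1), against 3.33% ± 0.0519 in native ECs. The fibrillar collagen gene Col1a1 was not called (8002, 8932 and 8617 CPM in fibroblasts and 8711, 9195 and 8653 in iECs, 0.06 ± 0.11) and the groups overlapped, while Col3a1 fell from 8855 ± 223 to 2451 ± 186 CPM (−1.85 ± 0.18). Postn, periostin of activated fibroblasts, was not called (1539 ± 36.9 and 1485 ± 97.1 CPM). Gsn stood at 10948, 10016 and 11149 CPM in fibroblasts and 344, 365 and 376 in iECs (−4.89 ± 0.19), and the stromal surface genes Ly6a (−4.68) and Ly6c1 (−5.92) fell. Tcf21, the transcription factor of cardiac fibroblasts, went from 324, 313 and 327 to 68.7, 74.2 and 62.9 CPM (−2.23 ± 0.13), beside 64.7 ± 12.3 in native ECs. The increases were Vcan (versican; 153 ± 21.2 to 1049 ± 83.6 CPM, 2.78 ± 0.16), Meox1, Mfap5, Vim and Fn1, with Pi16 and Cthrc1 at low levels. Heart mesenchyme transcription factors were split, 6 of 20 higher, led by Osr1 (21.1 to 104 ± 10.1 CPM, 2.30 ± 0.22), and 8 lower, among them Tbx20 (1143 ± 81.1 to 482 ± 6.99 CPM, −1.25 ± 0.11), while Gata4 rose slightly (0.37 ± 0.14) and Gata6 was not called.

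Small leucine-rich proteoglycans, which coat collagen fibrils, fell in 10 of 12 cases and rose in 0 (0 also at an unadjusted p under 0.05 in edgeR and 0 by DESeq2, but 1 with the heart fibroblasts and iECs fitted alone), with a median of −2.75. Their share went from 1.59, 1.5001 and 1.55 % of counts to 0.516, 0.563 and 0.528 %. Prelp fell from 1838 ± 81.9 to 217 ± 12.2 CPM (−3.08 ± 0.12) and Ogn (osteoglycin) from 238 ± 25.7 to 30.2 ± 1.93 (−2.98 ± 0.26), and Dpt (dermatopontin), Lum (lumican) and Dcn (decorin) had log2 changes of −5.01, −4.91 and −3.57. Bgn (biglycan) fell least of the abundant members, from 12317 ± 250.4 to 4769.6 ± 229 CPM (−1.37 ± 0.090). Aspn and Podn were not called.

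Elastic fibre genes moved in opposite directions within the list, 8 higher and 9 lower of 20, and its share still went from 1.02% ± 0.0369 to 1.70% ± 0.0122 (exact 2-sided permutation p = 0.1), against 0.876% ± 0.0340 in native ECs. Fbln5, which tethers elastin to cells, stood at 205, 204 and 206 CPM in fibroblasts and 2404, 2411 and 2459.6 in iECs (3.56 ± 0.16), and Fbn1, the main microfibril protein, went from 1966 ± 97.4 to 3977 ± 280.3 CPM (1.02 ± 0.13). Efemp1 (fibulin 3; 447 ± 19.3 to 11.5 ± 1.84 CPM, −5.27 ± 0.26), Mfap4 (−4.91 ± 0.24), Fbln1 (−4.06 ± 0.11) and Fbn2 (−3.76 ± 0.39) fell. Eln, elastin itself, was not called (152, 165 and 170.0 and 242, 246 and 218 CPM).

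Basement membrane genes were 8 higher and 8 lower of 24 (33.3% each way), and their share of counts went from 2.81% ± 0.0762 to 3.53% ± 0.0352. Col15a1, a collagen of vessel basement membranes, stood at 11.6, 16.6 and 10.9 CPM in fibroblasts and 597, 609 and 582 in iECs (5.51 ± 0.25), and Col18a1, the source of endostatin, went from 70.6 ± 4.12 to 579 ± 21.3 (3.04 ± 0.080). Lama1 and Lama3, laminin chains, rose from 2.67 to 29.7 ± 3.32 and from 0.398 to 11.1 ± 2.40 CPM. The minor type IV chains Col4a4 (−3.05), Col4a3 (−2.46) and Col4a6 (−1.78) fell, and the main chain Col4a1 was not called (8255 ± 197 and 7765 ± 136 CPM). Over 35 tested collagens 10 were higher (28.6%) and 13 lower (37.1%), the chains of collagen VI, Col6a1 (−2.05 ± 0.13) and Col6a2 (−1.82 ± 0.14), among the latter.

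Matrix proteases and their inhibitors went from 1.25% ± 0.0230 to 0.421% ± 0.00563 of counts (exact 2-sided permutation p = 0.1), with 15 of 37 members lower and 9 higher. Mmp3, stromelysin 1, went from 2045, 2067 and 2124 to 70.0, 88.6 and 85.0 CPM (−4.68 ± 0.40), Mmp2, a gelatinase, from 2819 ± 127 to 464 ± 12.9 (−2.60 ± 0.14), the aggrecanase Adamts5 from 1449 ± 38.6 to 289.7 ± 23.3 (−2.32 ± 0.31) and Adamts15 from 73.0 to 0.714 (−6.66 ± 0.39). The inhibitor Timp2 fell by 1.92, while Timp1 and Timp3 were not called. Members that rose included the metalloproteases Adamts12 (104 to 237 ± 7.47 CPM) and Adamts14 (10.6 to 36.8 ± 3.87 CPM). Of 20 integrins 9 were higher, with Itgb8, which activates latent TGF-beta, at 24.9, 23.1 and 26.9 CPM in fibroblasts and 213, 208 and 227 in iECs (3.11 ± 0.24), and 4 lower (2 without heart iEC replicate 3 or when scaled by totals alone), with Itga8 (−1.17 ± 0.34) and Itgb5 (−1.04 ± 0.12) among them.

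Contractile genes of smooth muscle rose in 12 of 19 cases and fell in 3, with a median of 0.84, and their share went from 0.212% ± 0.00272 to 0.473% ± 0.0144 of counts, against 0.291% ± 0.0143 in native ECs. Acta2, smooth muscle actin, stood at 189.6, 157 and 175 CPM in fibroblasts and 854, 753 and 814 in iECs (2.22 ± 0.19), Tagln at 45.3, 46.6 and 47.2 and 439, 359 and 406 (3.11 ± 0.15), and Myl9 at 15.3 and 67.6 ± 5.32 (2.14 ± 0.24). Myh11, the smooth muscle myosin, went from 2.22 to 7.83 ± 1.29 CPM (1.80 ± 0.35). The members that fell were Mylk, myosin light chain kinase (52.7 ± 1.70 to 7.89 ± 1.06 CPM, −2.74 ± 0.28), Synpo2 (−1.62 ± 0.15) and Itga8. Desmin (Des) was not called (1.83 and 1.06 CPM). Pericyte genes were 4 higher and 5 lower of 10, with a median of −0.26 and log2 changes from −2.69 to 4.22. Their share went from 0.110% ± 0.00186 to 0.104% ± 0.00142 of counts. The largest increase was that of Cspg4 (NG2), from 1.55 to 29.1 ± 2.78 CPM (4.22 ± 0.27).

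**Figure D5:**
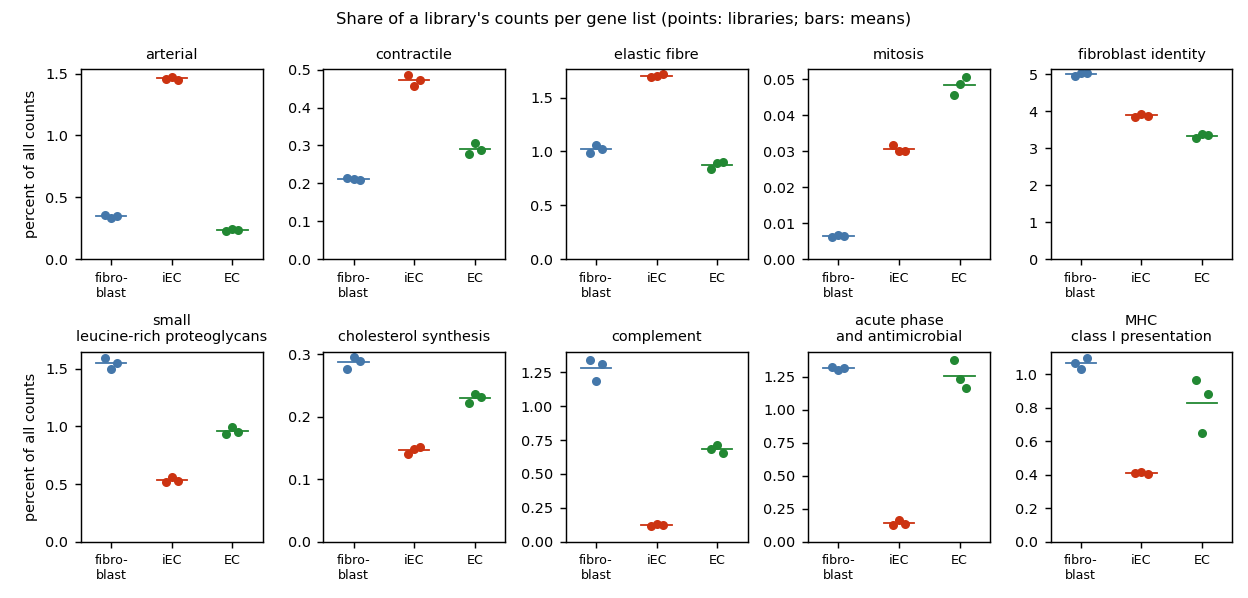
Summed share of a library's counts for 10 gene lists in the 9 heart libraries (points, percent of all counts; bars, group means; each panel starts at 0 and has its own scale). In every panel the 3 iEC libraries lie apart from the 3 fibroblast libraries, and mitosis genes reach 0.0483% ± 0.00246 in native ECs.

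Mitosis genes rose in nearly every member. Of 25 members 24 were higher in iECs (Bub1b was not called) and 0 were lower (0 also at an unadjusted p under 0.05 in edgeR and 0 by DESeq2), with a median log2 change of 2.21. Cdc20, the activator of the anaphase complex, stood at 3.18, 4.32 and 2.66 CPM in fibroblasts, 32.9, 31.8 and 31.9 in iECs and 20.6, 19.5 and 19.99 in native ECs (3.24 ± 0.15). Mki67, the proliferation marker, stood at 2.35, 3.21 and 4.05, 24.4, 22.5 and 22.8 and 34.8, 42.9 and 42.8 CPM (2.87 ± 0.18), and Top2a at 9.66, 9.48 and 8.47, 41.2, 42.2 and 44.4 and 67.9, 72.0 and 76.9 CPM (2.21 ± 0.11). Their share of counts was 0.00638% ± 0.000377 in fibroblasts and 0.0307% ± 0.000999 in iECs. Against native ECs 24 of the 25 were lower in iECs and 1, Cdc20, was higher. DNA replication genes were higher in 17 of 25, with smaller changes (median 0.51), led by Mcm5 (1.86 to 9.25 ± 1.02 CPM), Uhrf1 (2.76 to 10.6 ± 0.565 CPM) and Rrm2 (12.5 to 43.2 ± 3.83 CPM, 1.79 ± 0.15), and E2f1 was the only member lower (−0.41 ± 0.10). The checkpoint inhibitor Cdkn1a (p21) rose slightly, from 363 ± 19.4 to 442 ± 18.5 CPM (0.29 ± 0.073), and Cdkn2a was not called (21.4 and 26.6 CPM).

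Cholesterol synthesis genes fell nearly as a block. Of 23 members 22 were lower and 0 higher (0 also at an unadjusted p under 0.05 in edgeR and 0 by DESeq2), with a median of −1.33, and their share went from 0.276, 0.296 and 0.289 % to 0.140, 0.149 and 0.152 % of counts. Hmgcs1, whose start region is printed above, stood at 289, 306 and 280.3 CPM in fibroblasts and 94.1, 98.4 and 101 in iECs (−1.58 ± 0.12). Lss, lanosterol synthase, stood at 96.9, 109 and 105 and 24.1, 27.8 and 26.3 CPM (−1.99 ± 0.14), and Mvd, mevalonate decarboxylase, at 58.5 and 15.4 ± 1.09 (−1.93 ± 0.15). Against native heart ECs 21 of the 23 were lower. Glycolysis and hypoxia genes were 4 higher (2 without heart iEC replicate 2) and 13 lower of 29 by small steps (median −0.23), with Ndrg1 (−1.78 ± 0.13) and Bnip3 (−1.24 ± 0.18) among the decreases and Gapdh not called (1695 ± 101 and 1698 ± 68.0 CPM).

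Channels and transporters moved in both directions. Of 47 tested potassium channel genes 9 were higher and 15 lower (4 and 6 with a filter of 5 CPM), and their share of counts went from 0.0653, 0.0681 and 0.0662 % to 0.0184, 0.0203 and 0.0188 %. Kcne4, a channel-modifying subunit, stood at 527, 560.1 and 550.3 CPM in fibroblasts and 32.4, 46.7 and 41.4 in iECs (−3.76 ± 0.24) and holds most of that share in fibroblasts, while Kcnk6 rose from 2.99 to 29.6 ± 1.59 CPM (3.30 ± 0.22). Of 222 tested solute carriers 62 were higher and 67 lower, near the shares over all genes. Slc3a2, the heavy chain of amino acid exchangers, went from 128 ± 7.58 to 356 ± 7.70 CPM (1.47 ± 0.13) and Slc45a4 from 39.7 to 187 ± 3.64 (2.24 ± 0.10).

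Complement genes went from 1.34, 1.19 and 1.31 % to 0.114, 0.133 and 0.124 % of counts. Of 18 tested members 9 were lower and 2 higher (4 with the heart fibroblasts and iECs fitted alone). C3, the central component, stood at 8581, 7645 and 8588 CPM in fibroblasts, 106, 134 and 147 in iECs and 3872, 3895 and 3668 in native ECs (−6.003 ± 0.45). Cfb (−4.93), C4b (−4.84), C2 (−4.22) and the subunits C1s1 (−3.64) and C1ra (−3.21) fell, and the inhibitor Serping1 went from 2085 ± 142 to 229 ± 16.8 CPM (−3.18 ± 0.18). The members that rose were the membrane protectors Cd59a (1.25 ± 0.11) and Cd55 (0.73 ± 0.13). C1qa, C1qb and C1qc, which macrophages make, were not called. C4b shares most of its sequence with C4a, so counts can be split between them.

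Acute phase genes went from 1.32, 1.30 and 1.32 % to 0.126, 0.163 and 0.136 % of counts, with 13 of 17 lower and Lpo alone higher. Lcn2, a siderophore-binding protein, went from 73.7 ± 0.827 to 3.70 ± 0.414 CPM (−4.31 ± 0.99), Steap4, a metalloreductase, from 51.5 to 1.47 (−5.12 ± 0.997) and Lbp, the lipopolysaccharide-binding protein, from 689 ± 50.4 to 45.1 ± 4.08 (−3.93 ± 0.12). Cp, ceruloplasmin, went from 1901 ± 37.8 to 276 ± 37.1 CPM (−2.79 ± 0.41). Members of the Serpina3 cluster are near copies of each other, so their single values are uncertain. Of 30 tested chemokines 8 were lower (13 by DESeq2) and 3 higher. Cxcl12, the ligand of Cxcr4, went from 489, 449.7 and 473 to 57.6, 57.6 and 62.0 CPM (−2.99 ± 0.11), and Cxcl16 rose from 50.1 ± 3.28 to 129 ± 5.29 (1.36 ± 0.40). Interleukin genes were lower in 10 of 22 cases and higher in 0 (0 also at an unadjusted p under 0.05 in edgeR and 0 by DESeq2, but 3 higher and 14 lower with the heart fibroblasts and iECs fitted alone), with Il33, an alarmin, from 6.60 to 0.243 CPM and the receptor Il1r1 from 216 ± 11.3 to 64.4 ± 4.92 (−1.74 ± 0.11).

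Of 31 interferon-stimulated genes 16 were called lower (19 by DESeq2, which called 25.7% of all genes lower and 26.5% higher) and 0 higher (0 also at an unadjusted p under 0.05 in edgeR and 0 by DESeq2), with a median of −1.16. The iEC libraries lay below the fibroblast libraries in all 31. Over all tested genes the groups did not overlap, in either direction, for 65.1%. With the heart fibroblasts and iECs fitted alone all 31 were called lower, where 32.0% of all genes were. Ifit3, printed above, stood at 1638, 1639 and 1434 CPM in fibroblasts, 239, 203 and 186 in iECs and 2083, 1519 and 1553 in native ECs (−2.91 ± 0.65). Mx1, Ifit2 and Oas3, antiviral effectors, fell, with log2 changes of −3.11, −2.97 and −2.58, and the regulator Irf7 went from 623 ± 35.1 to 172 ± 16.4 CPM (−1.86 ± 0.56). MHC class I presentation genes fell in 15 of 16 cases (median −1.59) and their share went from 1.07, 1.03 and 1.10 % to 0.411, 0.414 and 0.405 %. H2-K1 went from 2605 ± 142 to 628 ± 16.6 CPM (−2.05 ± 0.32), H2-T23 from 638 ± 33.7 to 77.2 ± 4.997 (−3.05 ± 0.25), the light chain B2m from 4146 ± 182 to 1795 ± 51.4 (−1.21 ± 0.20) and the class I regulator Nlrc5 from 39.1 to 10.8 (−1.86 ± 0.37). H2-Q genes share sequence and are uncertain singly. Of 6 class II genes 3 were higher, all at low levels, with H2-Aa at 0 counts in fibroblasts and 2.20 CPM in iECs.

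Markers of other cell types differed in direction. Mesothelial and epicardial genes were lower in 12 of 15 cases (median −3.47), and their share went from a range of 0.0395% to 0.0414% of counts in fibroblasts to 0.0221% to 0.0241% in iECs. Msln, Lrrn4, Upk1b and Upk3b stood at 24.6, 10.9, 11.7 and 9.50 CPM in fibroblasts and at 0.617, 0.273, 0.660 and 0.535 in iECs. Native ECs had 186 CPM of Msln. Gpm6a, which is also known from nerve, rose from 6.94 to 109.7 ± 7.32 CPM, and Krt19 rose from 1.19 to 2.51. Of 20 macrophage genes 7 were higher and 2 lower (5 and 1 without heart fibroblast replicate 1 or heart iEC replicate 2, 6 and 1 without heart iEC replicate 3), with their share at 0.0263% to 0.0295% in fibroblasts and 0.0407% to 0.0463% in iECs. Ptprc, the leukocyte marker CD45, stood at 1.57, 1.79 and 0.968 and 2.88, 2.88 and 3.84 CPM, and Cd14, a receptor for lipopolysaccharide, at 6.66 and 0.662. Their part in the falls of complement, acute phase, interferon and MHC genes was not tested. Of 11 tested cardiomyocyte genes 1 was higher and 2 lower. Tnnt2 fell from 87.3 ± 5.33 to 7.27 ± 0.724 CPM (−3.58 ± 0.22), and 1 member that many cell types express held most of the list's share, which went from 0.0625% ± 0.00117 to 0.0458% ± 0.00135 of counts. The other 9 were at 2.70 CPM (Myl4 in fibroblasts) or less in both groups, Myh6 at 0.248 and 0.306 CPM. Epcam, which marks epithelium, was at 0 counts in all 6 libraries. Cdh19, known from glia, fell (given with the cadherins).

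The 13 protein genes of the mitochondrial genome held 2.04% ± 0.112 of counts in fibroblasts and 1.86% ± 0.0785 in iECs, and 8 of them were called lower by at most 0.67 on the log2 scale (mt-Nd3) and 0 higher (0 also at an unadjusted p under 0.05 in edgeR and 0 by DESeq2). Every iEC library was below every fibroblast library in this share (exact 2-sided permutation p = 0.1). Genes for ribosomal proteins held 3.19% ± 0.0270 and 3.19% ± 0.103. Of 79 members 25 were called lower and 2 higher on the TMM scale, but 4 lower and 6 higher when scaled by totals alone, 61 lower with the heart fibroblasts and iECs fitted alone, and 11 lower without heart iEC replicate 3. They were 14 to 16 without heart iEC replicate 2 or any 1 fibroblast library and 19 without heart iEC replicate 1, so no direction is given for them.

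The step from fibroblast to iEC differed between heart and lung for 3744 genes (25.2%), with the lung's log2 change the larger in 1873 (12.6%) and the smaller in 1871 (12.6%), by a test of the difference itself. Endothelial identity genes were larger in the lung in 24 of 30 cases and smaller in 2 (Thbd and Cd34). The difference is signed, and 8 of the 30 fell in heart. For a gene that fell in heart, larger can mean a smaller fall or a rise in the lung. For Cdh5 and Emcn the lung fibroblasts started from a lower level. Cdh5 stood at 75.5 CPM in heart and 3.17 in lung fibroblasts and at 555 and 465 in the iECs (difference in log2 change 4.30 ± 0.18). Emcn stood at 27.5 and 0.878 CPM in the fibroblasts and 126 and 228 in the iECs (5.82 ± 0.18). Among arterial genes 8 of 22 were larger and 10 smaller in the lung, Gja5 (−2.12 ± 0.60) and Hey1 (−1.86 ± 0.54) being smaller and Dll4 (1.42 ± 0.33) larger.

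Other groups changed less in the lung, and some genes went the other way. For 24 of 25 mitosis genes the lung's change was the smaller. Mki67 went from 3.20 to 23.2 CPM in heart and from 51.9 to 58.6 in lung (−2.69 ± 0.23). For 17 of 23 cholesterol genes the lung's change was the larger, that is, less negative, with Lss falling by 1.99 in heart and changing by −0.95 in lung (1.04 ± 0.20). Immediate early genes were smaller in 12 of 19, and 0 of the 31 interferon-stimulated genes differed between the organs in edgeR (1 at an unadjusted p under 0.05 and 1 by DESeq2). Saa3, an acute phase protein, fell in heart from 37.8, 30.7 and 42.2 to 0.533, 0.501 and 0.216 CPM and stood at 252, 212 and 79.2 in lung fibroblasts and 301, 22.5 and 858 in lung iECs (7.57 ± 1.82), where the libraries differed widely among themselves. Dkk2 rose in heart from 0.470, 0.737 and 0.121 to 52.0, 55.7 and 49.8 CPM and stood at 8.02, 6.28 and 8.53 and 24.0, 28.1 and 17.6 in lung (−5.22 ± 0.49). Itga11, a collagen receptor of fibroblasts, went from 19.7 to 79.7 ± 5.66 CPM in heart and from 42.8 to 10.3 in lung (−4.07 ± 0.20).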

How the data were processed

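RNA of 18 mouse libraries, 6 groups of 3, was sequenced after a column extraction and mRNA selection by a service provider, per the labels' protocols. The deposited table holds estimated counts per gene as whole numbers. The submitters' processing notes name Salmon, DESeq2 and mm10 without versions, and other settings are not given in the sources used here. All 35727 gene identifiers were kept, 35493 of them with a symbol in GENCODE M21 (GRCm38), and those without hold 0.0372% of the counts. Totals ran from 17747632 to 23775372 per library.

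The counts were fitted in edgeR 4.0.16 (R 4.3.3) with TMM factors, filterByExpr (14864 genes left), robust quasi-likelihood dispersions and 1 coefficient for each of the 6 groups, over all 18 libraries so that the groups share the estimate of spread. A gene was called when its p, adjusted after Benjamini and Hochberg over all genes tested, was under 0.05. Contrasts were heart iEC against heart fibroblast, heart iEC against heart EC, and the lung minus the heart change. A log2 change is given ± its standard error (the change divided by the square root of the F statistic), and CPM and percent of counts as mean ± SD over 3 libraries. Shares were compared by an exact 2-sided permutation test. A fold against a group without counts used a floor of 3 counts over its libraries. No library was left out, and no 2 columns were identical. Replicates within heart fibroblasts and within heart iECs differed by more than sampling noise (chi-square per degree of freedom 4.43 to 6.68). The other groups were not checked for this. On simulated counts for heart iEC against heart fibroblast over 14864 genes, 33 of 60 genes changed 1.5-fold, 62 of 72 changed 2-fold and 67 of 68 changed 4-fold were recovered, and 5 unchanged genes were called. All simulated libraries started from the heart fibroblast means, with far fewer genes changed than were called in the data, so recovery in the data may differ. Sequences are from a RefSeq promoter table (GRCm38.p6).

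The comparison, the gene lists and the tests were chosen with earlier results of these data known. Named genes were Sox17 and Erg, the 12 largest called log2 changes each way at 10 CPM or more without overlap, the 10 largest CPM differences each way, genes without counts in 1 group and at 5 CPM or more in each library of the other, up to 6 called members of a list each way at 5 CPM or more, and the 6 largest organ differences each way. Outside the lists, predicted, clone, pseudogene and mitochondrial genes and those without a symbol were left out. Genes named outside that rule were chosen after their values were seen. They are B2m, Bmp2, Bmx, Cdkn2a, Cldn5, Col1a1, Col4a1, Col4a3, Cp, Des, Dll1, Egfl7, Eln, Eng, Esam, Flt1, Gapdh, Gpihbp1, H2-Aa, Hes1, Hmgcs1, Irf7, Krt19, Lbp, Mfng, Mgp, Myh6, Myl4, Nr2f2, Pecam1, Postn, Ptprc, Reln, Sele, Selp, Serping1, Slc3a2, Sox18, Sox7, Tal1, Tgfbr1, Tgfbr2, Tmem100, Top2a, Unc5b and Vwf. Alternatives were RLE scaling, library totals alone, DESeq2 1.42.0, no filter beyond 1 count and a filter of 5 CPM in 3 libraries. Others were the compared groups alone, the replicate number as a block and a test against a log2 change of 1. Each library of a compared group was also left out in turn, for the contrasts that use its group. The lung EC libraries were in no contrast and were always kept. Some members of the lists are not reported by name here.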

Additional observations from a re-analysis of the deposited data

Results flagged for a closer look

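The change from fibroblast to iEC differed between lung and heart by a test of the difference itself (the interaction in edgeR's quasi-likelihood fit), with 1873 genes larger and 1871 smaller in the lung. The 12 genes below were called in heart iECs and had the largest such differences at 10 CPM or more in a heart group, 6 in each direction, given as lung minus heart on the log2 scale, with heart values first.

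Acute phase and secreted genes that fell in heart iECs were among the positive differences. Saa3 differed by 7.57, Hp by 5.75 and Serpina3f, a protease inhibitor with close copies, by 5.11. Hp went from 671 to 2.47 CPM in heart and from 115 to 23.02 in lung, and Serpina3f from 28.1 to 1.19 and from 3.83 to 5.59. Eef1a2 differed by 6.58, at 68.3 and 0.188 CPM in heart and 0.515 and 0.136 in lung, where it was low in both groups. Sucnr1, the succinate receptor, differed by 6.44 and went from 7.19 to 16.9 CPM in heart and from 0.0160 to 4.58 in lung. Emcn differed by 5.82.

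Genes that rose in heart iECs had the negative differences. Dkk2 differed by −5.22 and Tmtc4, an enzyme that adds mannose to proteins, by −4.34, from 7.02 to 357 CPM in heart and from 11.2 to 28.0 in lung. Slc26a7, an anion transporter, differed by −4.07, from 0.200 to 14.2 CPM in heart and from 0.279 to 1.17 in lung. Cxadr, a junction protein that is the coxsackievirus and adenovirus receptor, differed by −4.22, rising from 7.26 to 16.9 CPM in heart and going from 69.5 to 8.68 in lung. Limch1, an actomyosin regulator, differed by −4.15, from 19.5 to 52.6 CPM in heart and from 172 to 26.1 in lung, and Itga11 by −4.07.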

How the results depend on the processing

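All counts of called genes over the 3 contrasts stayed within 1.5 times the reported count under RLE scaling, library totals alone, DESeq2 and both filters. They did so too with the compared groups alone, the replicate block and each library of the compared groups left out. The exception was the test against a log2 change of 1. It called 1010 genes higher and 866 lower in iECs than in fibroblasts. Against heart ECs it called 691 higher and 1084 lower, and it called 330 larger and 262 smaller changes in the lung. Leaving out a library of the compared groups gave 3448 to 3527 higher and 3219 to 3299 lower against fibroblasts. Against heart ECs the ranges were 3108 to 3284 and 3227 to 3354, and in the lung 1591 to 1930 larger and 1597 to 2053 smaller. Same-numbered libraries of the 2 heart groups did not deviate together (r of 0.07, −0.08 and 0.04 across genes), so the numbers were not taken as pairs, and the replicate block gave 3788 higher and 3599 lower, 3562 and 3530, and 1768 and 1783.

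Of 1699 genes in the lists or named, 1695 kept their call under RLE scaling, 1659 under DESeq2, 1675 with the replicate block and 1466 with library totals alone, which lost 99 calls and gained 134, and 0 of the 1699 reversed under any alternative listed above. The compared groups alone kept 1305 of 1520 and gained 211, and each heart fibroblast or heart iEC library left out lost 79 to 102. The median log2 change of the FGF list, 0.50, ranged from −0.029 (without heart iEC replicate 1) to 0.61 (without heart iEC replicate 3). With library totals alone, higher and lower calls became 35 and 2 for respiratory chain genes (14 and 8 as reported by TMM), 22 and 3 for proteasome genes (6 and 3), 12 and 2 for ER chaperones (4 and 4), 10 and 1 for p53 targets and 10 and 1 for histone genes. The cause was not tested. Small changes are limited by depth and by 3 libraries a group. Of genes simulated with a 1.5-fold change in 14864 genes of heart iEC against heart fibroblast, 33 of 60 were recovered. Far fewer genes were changed there than the 50.7% called in the data, so recovery in the data may differ.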
